A study of Mus musculus with 10 samples.

Results

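The receptor-type protein tyrosine phosphatases (RPTPs) are single-pass membrane proteins that pair an adhesion-like ectodomain with cytoplasmic phosphatase domains. The 10 genes Ptprf, Ptpru, Ptprd, Ptprs, Ptprk, Ptprm, Ptprg, Ptpra, Ptprj and Ptprz1 were followed by their symbols in the RNA sequencing of a mouse melanoma line and its liver-passaged subline. All 10 symbols were found. They are 10 of 21 RPTP genes and belong to 55385 gene identifiers in the tables. The list was drawn up with the difference between both lines known, so the members' differences are given as a description, without p-values, and their calls support nothing.

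WT31 is a melanoma line established from Tyr∷NrasQ61K/°; INK4a−/− mice, in which mutant Nras is driven by the tyrosinase promoter of pigment cells. The subline WT31_P5IV came from the same cells after 5 hepatic passages following intravenous injection. The genotype given for the parental line is thus its origin, and whether all alleles were kept was not tested here. Both lines were untreated and RNA was taken from sub-confluent cultures, 5 libraries per line. Each group is a single line, so the replicates are cultures of that line and the p-values measure the spread between cultures only. The comparison asks which transcripts differ in level between a parental line and a subline selected in the liver.

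Totals were 24825671 to 25750639 estimated counts in WT31 and 24255389 to 25547694 in WT31_P5IV, at which 3 counts correspond to 0.114 to 0.129 CPM (counts scaled to a library of 1000000). The labelled cell type was matched by its markers, as the 7 melanocyte genes summed to 14400 to 15200 TPM (transcripts scaled by length to a total of 1000000) in WT31 and 16100 to 17900 in WT31_P5IV. Of these 3 rose and 2 fell by the edgeR fit described below, beside 34.6% and 33.9% of all tested genes. Their median log2 fold change was 0.01. Dct and Tyr had the highest mean CPM and rose, Dct by 0.80 and Tyr by 0.25 on the log2 scale (edgeR adjusted p = 2.72e-09 and 0.000564), and Pmel rose by 1.22 (edgeR adjusted p = 1.07e-10). The 2 that fell, named after their values were seen, were Tyrp1 (log2 fold change −0.96, edgeR adjusted p = 3.50e-11) and Sox10 (−0.14, edgeR adjusted p = 0.0373). Markers of other cell types were low. The 6 leukocyte markers reported summed to 1.67 to 4.50 TPM against 6.28 to 9.86 TPM, and of these only Cd68 passed the filter on low counts (1.37 ± 0.455 and 3.73 ± 0.638 CPM, SD, n = 5 each), while Ptprc, Adgre1 and Cd3e had at most 2 counts in any library. Cd68 rose by 1.45 on the log2 scale (edgeR adjusted p = 1.16e-05). The 5 stellate cell and fibroblast markers summed to 0.605 to 1.07 against 1.14 to 1.48 TPM, the 5 hepatocyte markers to 0.428 to 0.861 against 0.540 to 1.49 TPM and the 5 endothelial markers to 0.0550 to 0.324 against 0.0645 to 0.229 TPM. Of these lists Acta2 rose from 0.275 ± 0.164 to 0.758 ± 0.0939 CPM (edgeR adjusted p = 0.000969) and Col1a1 from 0.868 ± 0.200 to 1.73 ± 0.233 CPM (edgeR adjusted p = 0.000156), and Ttr had 0.392 ± 0.137 and 0.468 ± 0.120 CPM (edgeR adjusted p = 0.438). The defining markers Alb, Pecam1, Cdh5 and Lyve1 had at most 9 counts in any library. The part of such cells in the values below was not tested.

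RPTPs remove phosphate from tyrosine residues and so oppose receptor and Src-family tyrosine kinases at the cell surface. They are sorted by their ectodomains. LAR-type receptors (Ptprf, Ptprs, Ptprd) carry immunoglobulin and fibronectin repeats and bind heparan sulfate proteoglycans and synaptic adhesion proteins. MAM-type receptors (Ptprm, Ptprk, Ptpru) bind their own kind on a neighbouring cell and associate with cadherins and catenins. Ptprg and Ptprz1 carry a carbonic anhydrase-like domain that binds contactins. Ptpra has a short glycosylated ectodomain and Ptprj a row of fibronectin repeats, and both act on Src-family kinases.

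Of the listed genes, 3 differed between the lines by at least 1 on the log2 scale: Ptprf and Ptprz1 were lower and Ptpru was higher in WT31_P5IV. Their promoters are shown as reference for these 3 genes, since the RNA data hold no measurement of promoter activity. The sequences are the 250 bases before the RefSeq transcript start in GRCm38.p6, 5′ to 3′ on the gene's strand, with matches to GGGCGG and CATGTG on either strand (CCGCCC and CACATG on the other strand) in capitals. The Ptprf window is chr4:118291398-118291647 on the minus strand, the Ptprz1 window chr6:22875252-22875501 on the plus strand and the Ptpru window chr4:131838279-131838528 on the minus strand.
Ptprf: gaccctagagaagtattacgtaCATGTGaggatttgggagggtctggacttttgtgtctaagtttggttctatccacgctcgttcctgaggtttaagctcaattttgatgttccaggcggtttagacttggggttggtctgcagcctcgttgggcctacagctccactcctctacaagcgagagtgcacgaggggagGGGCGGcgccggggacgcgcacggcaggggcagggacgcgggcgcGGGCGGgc
Ptprz1: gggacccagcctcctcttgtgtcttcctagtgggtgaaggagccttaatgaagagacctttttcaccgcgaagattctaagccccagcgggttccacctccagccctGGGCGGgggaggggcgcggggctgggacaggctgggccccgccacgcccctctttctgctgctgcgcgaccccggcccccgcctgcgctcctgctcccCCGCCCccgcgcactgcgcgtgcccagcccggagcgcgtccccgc
Ptpru: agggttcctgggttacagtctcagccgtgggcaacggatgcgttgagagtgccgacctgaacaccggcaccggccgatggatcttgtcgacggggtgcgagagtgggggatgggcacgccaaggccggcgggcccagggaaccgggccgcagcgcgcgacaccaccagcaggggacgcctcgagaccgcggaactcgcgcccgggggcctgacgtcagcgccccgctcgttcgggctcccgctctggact

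The Ptprf window held 18 CpG dinucleotides, 2 GGGCGG matches (the core of the GC box) and 1 CATGTG match (the core letters of the E-box known as the M-box). The Ptprz1 window held 22 CpG and 2 GGGCGG matches. The Ptpru window held 31 CpG and no match to either motif. A search for ACAAAG, letters bound by SOX proteins, with its complement CTTTGT found no match in the windows of these 3 genes. No matches overlapped in these windows. Over 32851 RefSeq promoter windows of the same length the median was 6 CpG with quartiles of 2 and 16, so each of the 3 windows lay above the upper quartile. So did windows of Ptprk (38 CpG), Ptprm (37), Ptprj (34), Ptprg (31) and Ptpra (25). Both Ptprs windows held 15 CpG, and second windows of Ptprj and Ptprg held 3 and 6. GGGCGG was also present in windows of Ptprj, Ptprm, Ptprs, Ptpra and Ptprk, and CATGTG in those of Ptprg. GGGCGG occurred in 32.7% of all windows, CATGTG in 12.3% and ACAAAG in 16.5%. Of the 10 genes, 9 were matched to this promoter table and Ptprd was not.

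The LAR-type receptors differed in direction, with Ptprf lower and Ptprs and Ptprd higher in WT31_P5IV. Ptprf (ENSMUSG00000033295.14; GRCm38 chr4:118208213-118291405, minus strand), the LAR receptor itself, was detected in WT31 at 4.39, 5.87, 5.77, 5.15 and 5.66 CPM in replicates 1 to 5. In WT31_P5IV it stood at 0.168, 0.172, 0.121, 0.211 and 0.207 CPM, from 3 to 5 counts per library. Every WT31 library lay above every WT31_P5IV library, and the subline was close to the limit of detection. The means were 5.37 ± 0.612 and 0.176 ± 0.0363 CPM (SD, n = 5 each, as for all values with ± below), a log2 fold change of −4.90 with a standard error of 0.17 and thus 29.8-fold lower. From the summed counts, 688 against 21, the ratio after scaling by library size was 30.7 with an exact 95% interval of 19.9 to 49.9 that covers counting error only. In bulk samples fewer cells with the transcript and less transcript per cell cannot be told apart.

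Ptprs (GRCm38 chr17:56412426-56476483, minus strand), the heparan and chondroitin sulfate receptor PTPσ, was by far the most abundant LAR-type gene. The parental libraries held 175, 188, 183, 181 and 179 CPM, and those of the subline 349, 357, 357, 332 and 354 CPM. Both groups were tight and did not overlap. The means were 181 ± 4.98 and 350 ± 10.6 CPM, a log2 fold change of 0.95 with a standard error of 0.03. Ptprd (GRCm38 chr4:75941238-78211961, minus strand), PTPδ, whose gene spans 2270.7 kb, ranged from 36.5 to 48.0 CPM in WT31 and from 51.5 to 61.9 CPM in WT31_P5IV. Its log2 fold change was 0.45 with a standard error of 0.08. The highest WT31 library was thus below the lowest library of the subline, by a small margin.

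Of the MAM-type receptors, Ptprm was abundant, Ptpru was low and Ptprk was near the limit of detection. Ptprm (GRCm38 chr17:66666947-67354457, minus strand), the homophilic adhesion receptor PTPμ, ranged from 101 to 109 CPM in WT31 and from 152 to 173 CPM in WT31_P5IV. Its log2 fold change was 0.66 with a standard error of 0.04. Ptpru (ENSMUSG00000028909.17; GRCm38 chr4:131768457-131838288, minus strand), a MAM-type receptor whose promoter window is given above, had 1.25, 0.870, 1.14, 1.02 and 1.03 CPM in WT31. In WT31_P5IV it had 3.15, 2.79, 2.01, 2.02 and 2.31 CPM. The subline was higher in all 5 libraries, although replicates 1 and 2 stood above replicates 3, 4 and 5. The means were 1.06 ± 0.143 and 2.46 ± 0.501 CPM, and the log2 fold change was 1.21 with a standard error of 0.17. These values rest on 23 to 32 counts in each parental library and 48 to 75 in each subline library. Ptprk (GRCm38 chr10:28074820-28597397, plus strand), PTPκ, had 0, 1, 4, 2 and 1 counts in WT31 and 3, 1, 2, 0 and 1 counts in WT31_P5IV. It did not pass the filter on low counts and no difference was detectable at this depth.

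**Figure D1:**
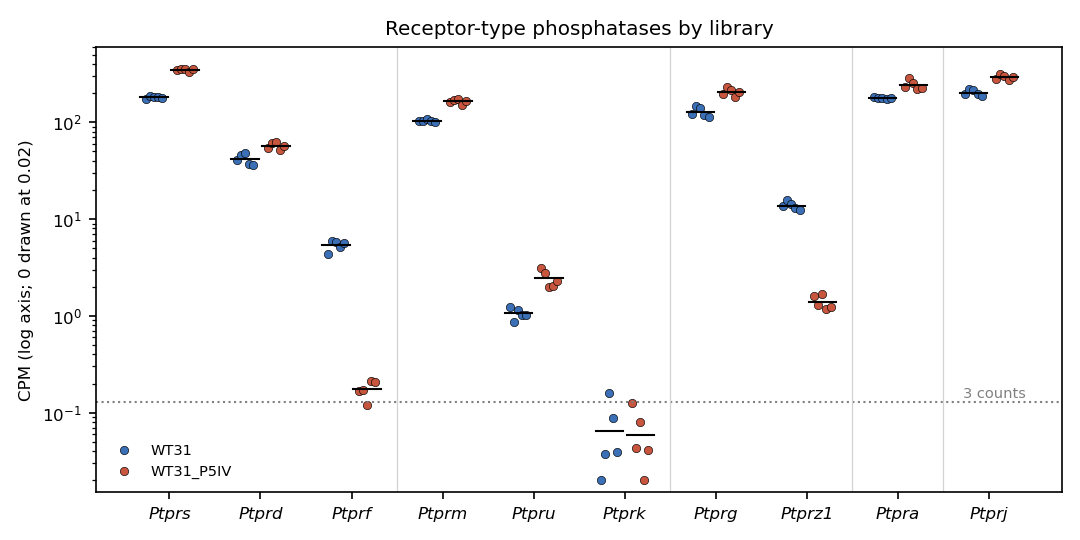
CPM of the 10 listed genes in each library (log axis; points are libraries, bars are means of 5, vertical lines separate subfamilies, values of 0 are drawn at 0.02). WT31 and WT31_P5IV points do not overlap for 9 of the 10 genes. For Ptprk, at 0 to 4 and 0 to 3 counts per library, they overlap and lie mostly below the dotted line of 3 counts.

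The carbonic anhydrase-type receptors also differed in direction. Ptprz1 (ENSMUSG00000068748.7; GRCm38 chr6:22875502-23052916, plus strand), a receptor for pleiotrophin that is best known in glia and can be made as a secreted proteoglycan, had 13.7, 15.6, 14.2, 13.0 and 12.3 CPM in WT31. The WT31_P5IV libraries held 1.60, 1.29, 1.69, 1.18 and 1.24 CPM, from 28 to 42 counts each. All subline libraries lay below all parental libraries, and unlike Ptprf the transcript stayed well above 3 counts. The means were 13.8 ± 1.27 and 1.40 ± 0.229 CPM, a log2 fold change of −3.29 with a standard error of 0.11, or 9.80-fold lower. Ptprg (GRCm38 chr14:11553532-12242041, plus strand), its closest relative, lay between 114 and 149 CPM in WT31 and between 181 and 232 CPM in WT31_P5IV. Its log2 fold change was 0.69 with a standard error of 0.08, so the difference between the lines had opposite signs in this pair.

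The remaining 2 listed genes were abundant in both lines. Ptpra (GRCm38 chr2:130450278-130556124, plus strand), which removes the inhibitory phosphate of Src, ranged from 174 to 182 CPM in WT31 and from 223 to 286 CPM in WT31_P5IV. The parental libraries were nearly equal, with a coefficient of variation of 1.79%, while the subline spread over 10.6%, replicate 2 being the highest. The log2 fold change was 0.46 with a standard error of 0.06. Ptprj (GRCm38 chr2:90429754-90580647, minus strand), known as DEP-1 or CD148, ranged from 185 to 220 CPM in WT31 and from 275 to 312 CPM in WT31_P5IV, with a log2 fold change of 0.53 and a standard error of 0.05.

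In the edgeR fit across all 13620 tested genes, 9 members passed the filter on low counts and all 9 lay past the threshold of 0.05 on the adjusted p, 7 of them higher and 2 lower in WT31_P5IV. Of all tested genes 68.5% were called in that way, 34.6% higher and 33.9% lower, or 4709 and 4618 genes. On the log2(TPM + 0.1) scale the split was 2915 higher and 5946 lower, and on log2(TPM + 1) 2910 and 5957. A further limit of at least 1 on the log2 scale left 1 member higher and 2 lower. That limit was passed by 9.1% of all tested genes, 5.42% higher and 3.69% lower. The groups did not overlap for 9 of 9 tested members and for 54.1% of all tested genes. The members were chosen on this contrast and nothing is read from these counts. Their median log2 fold change was 0.53, and that of all tested genes was 0.01.

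**Figure D2:**
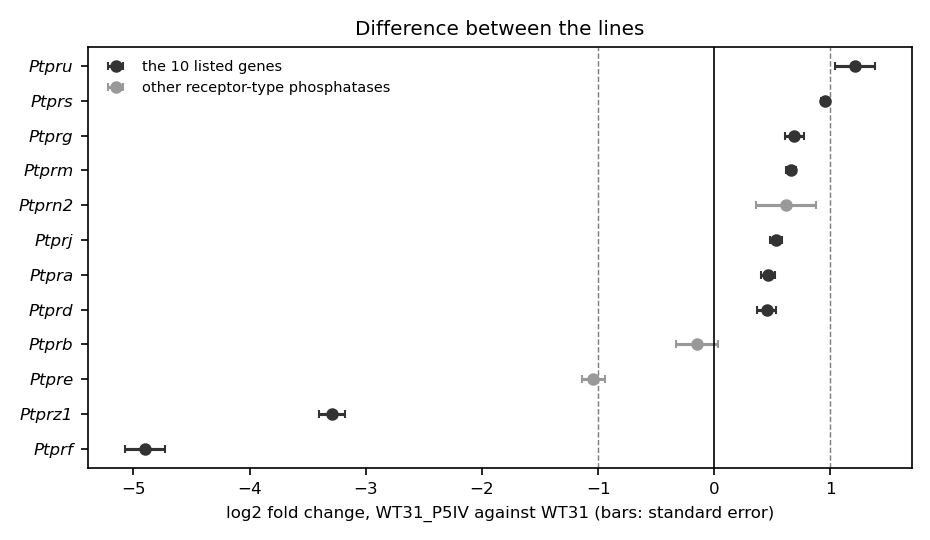
log2 fold change of WT31_P5IV against WT31 for the 9 tested members (black) and for 3 other tested RPTPs (grey); bars are standard errors from 5 libraries per line and dashed lines mark −1 and 1. Ptprf at −4.90 and Ptprz1 at −3.29 lie apart from the 7 members that lie between 0.45 and 1.21.

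Within the lines, WT31 replicate 2 held the highest CPM for 5 of the 9 tested members and replicate 5 the lowest for 5. In WT31_P5IV replicate 4 was the lowest for 7 of 9 and replicate 3 the highest for 4. Across all genes, WT31 replicates 2 and 3 lay at −15 and −13.6 on the second principal component and replicates 4 and 5 at 10.5 and 16.6. That component held 6.1% of the variance, and the first, which separated both lines, held 80.9%.

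Levels between genes were compared in TPM, which is scaled by transcript length. In WT31 Ptpra was highest at 131 to 150 TPM, followed by Ptprs at 92.4 to 105 TPM. Ptprg (39.2 to 54.6 TPM) and Ptprj (38.5 to 49.0 TPM) overlapped in range, although Ptprg was above Ptprj in 5 of 5 libraries. Ptprm, Ptprd, Ptprz1, Ptprf, Ptpru and Ptprk followed, each without overlap with the next. In WT31_P5IV Ptprs at 170 to 186 TPM and Ptpra at 153 to 196 TPM overlapped, with Ptprs the higher in 3 of 5 libraries. Ptpru at 0.595 to 1.23 TPM now stood above Ptprz1 at 0.252 to 0.357 TPM, and Ptprf at 0.0369 to 0.0972 TPM overlapped with Ptprk. The order of Ptpru, Ptprz1 and Ptprf thus differed between the lines, whereas Ptprs and Ptpra had no settled order in the subline.

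The 21 RPTP genes summed to 362 to 408 TPM in WT31 and to 488 to 560 TPM in WT31_P5IV, without overlap. Ptpra made up 36.8 ± 1.28% of this sum in WT31 and 32.1 ± 1.78% in WT31_P5IV (SD, n = 5 each), and Ptprs 25.9 ± 2.16% and 33.4 ± 1.60%. Within the LAR-type genes the share of Ptprf was 1.04 ± 0.140% of their TPM in WT31 and 0.0280 ± 0.0139% in the subline, while Ptprs held 91.0 ± 1.40% and 94.4 ± 0.573%. Both lines were therefore dominated by Ptprs among LAR-type transcripts. Ptprz1 made up 7.25 ± 0.345% of the carbonic anhydrase-type TPM in WT31 and 0.452 ± 0.0795% in WT31_P5IV, and Ptpru 1.03 ± 0.155% and 1.84 ± 0.476% of the MAM-type TPM.

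**Figure D3:**
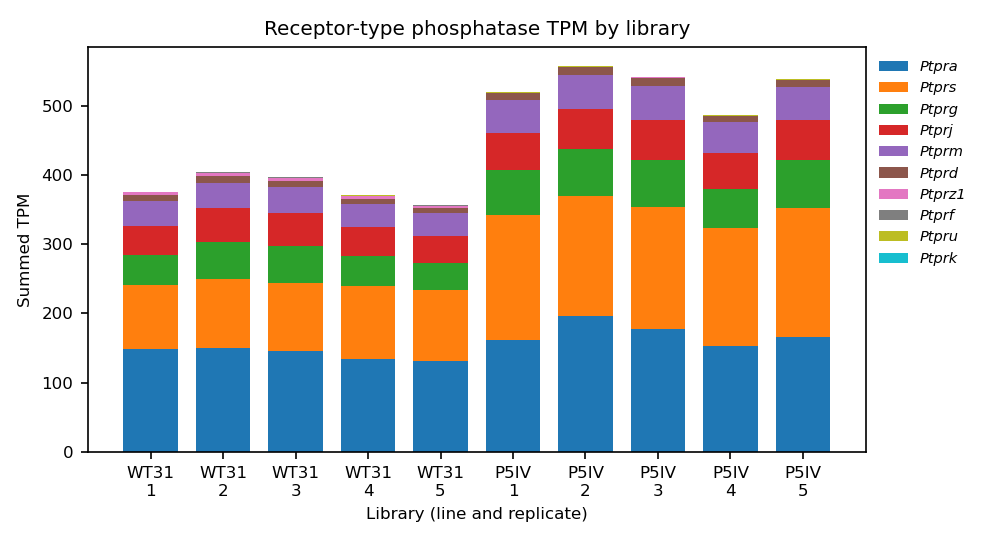
Summed TPM of the 10 listed genes in each library, stacked by gene. The WT31 bars reach 358 to 404 TPM and the WT31_P5IV bars 486 to 558 TPM; Ptprs (orange) and Ptpra (blue) form most of each bar, and Ptprz1, Ptprf, Ptpru and Ptprk form thin bands at most.

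TPM rests on the transcripts to which reads were assigned. The ratio of estimated count to TPM gave the mean effective length of these transcripts, calibrated on 631 genes with 1 annotated transcript. For Ptpra it was 1881 bases in WT31 and 1895 bases in WT31_P5IV, against a longest annotated transcript of 5325 bases. For Ptprs it was 2723 and 2622 bases, against 6855 bases. In CPM, which is not scaled by length, Ptprj was the highest in WT31 with 203 ± 14.9 CPM, and Ptprs was the highest in WT31_P5IV, as it was in mean TPM. Between the lines the effective length overlapped for Ptprd, Ptprs, Ptprg, Ptpra and Ptprj. For Ptprm it was 4344 to 4485 bases in WT31 and 4524 to 4619 bases in WT31_P5IV, a log2 ratio of 0.06 that lies within −0.15 to 0.07, the 5th to 95th percentile over 10013 genes. Of 31-base words in the transcripts, 11.5% were shared with other genes for Ptprj, 4.78% for Ptprm and 3.98% for Ptpra, and under 1% for the other listed genes, so the counts of Ptprj are the least certain in this respect.

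Among the 11 RPTP genes that were not listed, 3 passed the filter on low counts. Ptpre, the closest relative of Ptpra, fell from 8.71 ± 1.12 to 4.23 ± 0.415 CPM, a log2 fold change of −1.04 with a standard error of 0.10 (adjusted p = 3.20e-07, edgeR's quasi-likelihood test, adjusted by Benjamini-Hochberg over the 13620 tested genes). It was lower in all 5 subline libraries, in contrast to Ptpra. Ptprb, the vascular endothelial phosphatase, had 1.31 ± 0.295 and 1.19 ± 0.0815 CPM (adjusted p = 0.480 in the same edgeR fit). Ptprn2, a secretory granule protein, had 0.438 ± 0.168 and 0.675 ± 0.0812 CPM with an adjusted p of 0.0413 in the edgeR fit. That call rested on 6 to 19 counts per library and was lost in 12 of 18 alternatives, with adjusted p from 0.0542 to 0.218 in those and from 0.0198 over all 18. The call was lost among others without WT31 replicate 1, 2 or 4 or without WT31_P5IV replicate 2, 3, 4 or 5. Of the others, Ptprh and Ptprq had no count in any library, and Ptprc, Ptprn, Ptpro, Ptprr, Ptprt and Ptprv had at most 7.

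Of 17 listed non-receptor phosphatase genes 12 were tested. Of these 2 rose and 8 fell, beside 34.6% and 33.9% of all tested genes. Their median log2 fold change was −0.22 beside 0.01 over all tested genes, and none reached 1 on the log2 scale. On the log2(TPM + 0.1) scale 2 rose and 8 fell, with a median of −0.34. All tested genes had a median shift of −0.167 on that scale. The highest mean CPM over all 10 libraries belonged to Ptpn11, the SHP2 phosphatase of Ras signalling, and Ptpn14, a regulator of cell junctions. Ptpn11 fell from 198 ± 11.2 to 161 ± 3.65 CPM (log2 fold change −0.29, edgeR adjusted p = 1.51e-05) and Ptpn14 from 142 ± 15.0 to 121 ± 3.50 CPM (log2 fold change −0.23, edgeR adjusted p = 0.00291). The 2 genes that rose, named here after their values were seen, were Ptpn6 with a log2 fold change of 0.89 and Ptpn23 with 0.40.

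Ligands of the LAR-type receptors were followed as a list of 24 genes, of which 14 were tested. Of these 7 rose and 3 fell, beside 34.6% and 33.9% of all tested genes, with a median log2 fold change of 0.18. On the log2(TPM + 0.1) scale 6 rose and 4 fell, with a median of 0.04. Leaving out WT31 replicate 1 or WT31_P5IV replicate 1 gave 7 and 5 of 16 tested genes, with medians of 0.04 and 0.05. Agrn, the heparan sulfate proteoglycan agrin, rose from 161 ± 7.40 to 328 ± 20.1 CPM (log2 fold change 1.02, edgeR adjusted p = 1.36e-10), a difference of the size seen for Ptprs. Sdc3, syndecan-3, had the highest mean CPM of the list at 3280 ± 48.3 and 3430 ± 147 CPM (edgeR adjusted p = 0.130). Gpc1, glypican-1, rose from 328 ± 17.4 to 488 ± 11.6 CPM (log2 fold change 0.57, edgeR adjusted p = 1.08e-08). Slitrk6, named after its values were seen, had 10 to 20 counts in WT31 and none in WT31_P5IV, at least 4.67-fold lower when the subline is set to 3 counts per library. It did not pass the filter and was not tested. The other 5 Slitrk genes, synaptic partners of these receptors, had at most 2 counts in any library.

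For the ligands of Ptprz1, Ptprg and Ptprj, 15 genes were listed and 6 tested. Of these 2 rose and 3 fell, beside 34.6% and 33.9% of all tested genes, with a median log2 fold change of −0.38. On the log2(TPM + 0.1) scale 2 rose and 4 fell, with a median of −0.81, and with no filter on low counts the median over 13 genes was 0.31. Ptn, the Ptprz1 ligand pleiotrophin, fell from 168 ± 2.24 to 73.8 ± 2.93 CPM (log2 fold change −1.19, edgeR adjusted p = 1.41e-12). Tnc, the matrix protein tenascin-C, fell from 14.2 ± 1.55 to 0.783 ± 0.114 CPM (log2 fold change −4.17, edgeR adjusted p = 8.25e-13). Both of these genes were lower in WT31_P5IV, as was Ptprz1, but the list went in both directions. Thbs1 and L1cam, named after their values were seen, had log2 fold changes of 0.40 and −0.36 (edgeR adjusted p = 2.07e-06 and 8.84e-07). Nrcam, an adhesion molecule of the same list, rose from 218 ± 12.4 to 433 ± 29.2 CPM (log2 fold change 0.99, edgeR adjusted p = 5.30e-10). Contactin genes Cntn1 to Cntn6, which encode binding partners of Ptprg, had at most 11 counts in any library and were not tested.

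Of 11 intracellular scaffold genes 9 were tested. Of these 4 rose and 3 fell, beside 34.6% and 33.9% of all tested genes, with a median log2 fold change of 0.15. On the log2(TPM + 0.1) scale 2 rose and 3 fell, and the median was −0.12. Without scaling 3 rose and 4 fell. Ppfia1, liprin-α1, which anchors LAR-type receptors, fell from 177 ± 8.07 to 158 ± 4.64 CPM (log2 fold change −0.16, edgeR adjusted p = 0.00151), and the kinase gene Abl1 from 281 ± 3.32 to 266 ± 3.27 CPM (log2 fold change −0.08, edgeR adjusted p = 0.0221).

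RPTPs are cut by proprotein convertases on the way to the surface and then by ADAM proteases and γ-secretase. All 13 genes listed for these steps were tested. Of these 8 rose and 2 fell, beside 34.6% and 33.9% of all tested genes, with a median log2 fold change of 0.40. On both log2(TPM) scales 7 rose and 3 fell, with a median of 0.21, and with at least 10 counts in every library 8 rose and 0 fell of 11 tested. The 2 that fell were 2 of the 4 convertases, while the other 2, Furin and Pcsk7, named after their values were seen, each rose by 0.41 on the log2 scale (edgeR adjusted p = 4.73e-06 and 1.05e-05). Pcsk6 fell from 2.15 ± 0.288 to 0.0718 ± 0.0722 CPM (log2 fold change −4.76, edgeR adjusted p = 1.40e-08), with 0 to 5 counts in the subline libraries. Its ratio of summed counts, scaled in the same way, was 28.8 with an exact 95% interval of 15.0 to 63.7. Pcsk5 fell from 2.03 ± 0.216 to 0.258 ± 0.0974 CPM (log2 fold change −2.95, edgeR adjusted p = 1.67e-08). Adam10, the main ectodomain sheddase, had 258 ± 14.3 and 278 ± 25.8 CPM (edgeR adjusted p = 0.127). Ncstn, the nicastrin subunit of γ-secretase, rose from 132 ± 4.46 to 225 ± 10.2 CPM (log2 fold change 0.77, edgeR adjusted p = 4.37e-10).

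Substrates and complex partners of RPTPs comprised 26 genes, of which 20 were tested. Of these 5 rose and 10 fell, beside 34.6% and 33.9% of all tested genes. Their median log2 fold change was −0.15, with no gene past 1 on the log2 scale. On the log2(TPM + 0.1) scale 3 rose and 12 fell, with a median of −0.26. The catenins had the highest mean CPM. Ctnnb1, β-catenin, fell from 1110 ± 25.4 to 977 ± 7.25 CPM (log2 fold change −0.19, edgeR adjusted p = 8.31e-05) and Ctnna1, α-catenin, from 525 ± 15.3 to 390 ± 10.2 CPM (log2 fold change −0.43, edgeR adjusted p = 4.27e-08), whereas their partner Ptprm was higher. The cadherin gene Cdh2, named after its values were seen, was higher too (log2 fold change 0.20, edgeR adjusted p = 0.0109). Ctnnd1 and Jup, named in the same way, were lower (−0.30 and −0.21, edgeR adjusted p = 1.23e-06 and 0.00276). The kinases of the list, named after their values were seen, went in both directions. Of the Src family, Src had 218 ± 7.25 and 221 ± 6.04 CPM (edgeR adjusted p = 0.567), Fyn fell by 0.21 and Yes1 by 0.28 on the log2 scale (edgeR adjusted p = 3.12e-05 and 0.00145), and Lyn rose by 0.32 (edgeR adjusted p = 0.000326). Ptk2, the focal adhesion kinase, fell by 0.16 (edgeR adjusted p = 0.000874). Of the receptor kinases, Erbb2 rose by 0.94, Met by 0.79 and Insr by 0.67 (edgeR adjusted p = 2.89e-10, 1.55e-06 and 1.34e-06), while Pdgfra and Pdgfrb were not called (edgeR adjusted p = 0.850 and 0.618).

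**Figure D4:**
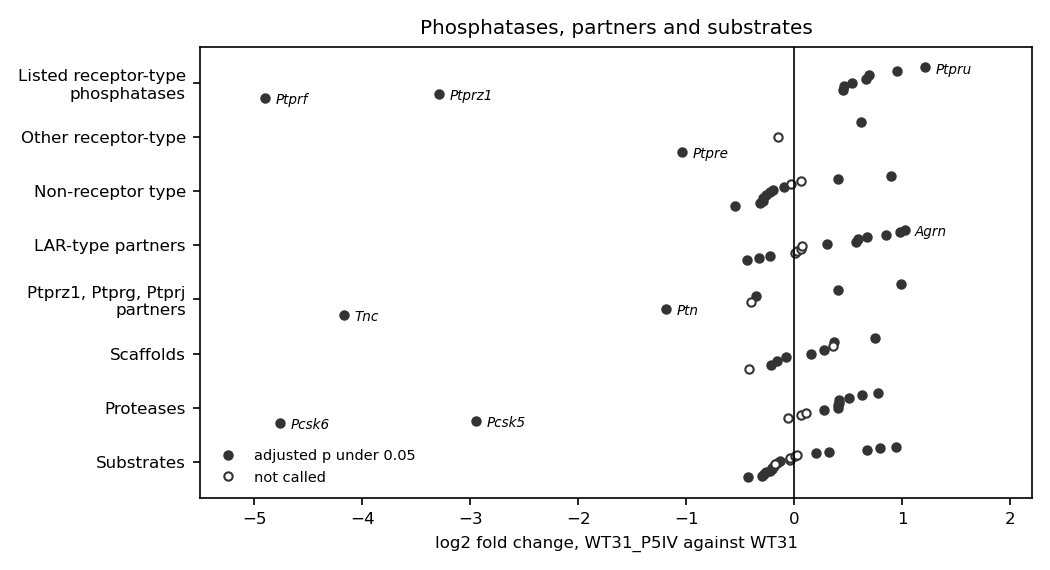
log2 fold change of WT31_P5IV against WT31 for each tested gene of the lists, 1 row per list (filled, adjusted p under 0.05; open, not called; genes past 1 in either direction carry their name). Most genes lie between −1 and 1, and the 5 genes left of −2 are Ptprf, Pcsk6, Tnc, Ptprz1 and Pcsk5.

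The tested genes nearest to each member on its chromosome were also compared, at distances of up to 6566.8 kb. For the 10 members, the 5 nearest on each side by lowest annotated coordinate were taken. By the edgeR fit 36 of 100 rose and 39 fell, beside 34.6% and 33.9% of all tested genes. Their median log2 fold change was 0.01. On the log2(TPM + 0.1) scale 17 were higher and 50 lower, with a median of −0.15. All tested genes had a median shift of −0.167 on that scale. Around Ptprf 6 genes were higher and 3 lower, none past 1 on the log2 scale, and the nearest on either side, Kdm4a and Hyi, had log2 fold changes of −0.17 and 0.21. Around Ptprz1 6 genes were higher and 0 lower, with a median of 0.18. No flanking gene of these 2 members was lower to a similar extent. Around Ptpru 3 were higher and 4 lower. Gm12992, whose lowest annotated coordinate lies 131.0 kb above that of Ptpru, rose from 1.21 to 2.51 CPM (log2 fold change 1.05, edgeR adjusted p = 1.94e-05).

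Of the flanking genes of the other members, 8 passed 1 on the log2 scale. These were the nearest tested genes and most were far from the member, as the distances between lowest annotated coordinates show. Frmd3 (at −1927.8 kb) and Rasef (log2 fold change −1.25, at −2226.7 kb) fell on the lower side of Ptprd. Frmd3 had 14 to 26 counts in WT31 and 0 to 2 in WT31_P5IV, and its scaled ratio of summed counts was 21.3 with an exact 95% interval of 8.88 to 67.0. Epb41l3 (log2 fold change −3.74) fell at 2408.7 kb from Ptprm. Cadps (−3.27) and 3830406C13Rik (−1.03) fell at 819.0 and 730.6 kb from Ptprg, and Gm13736 (−1.03) at −2903.6 kb from Ptprj. Gm20219, at 139.0 kb from Ptprs, rose by 1.11 on the log2 scale and Gm47939, at −2175.5 kb from Ptprk, by 1.38. Except for Gm20219, these genes differed in direction from a member that was higher, or were listed for Ptprk, which was not tested.

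**Figure D5:**
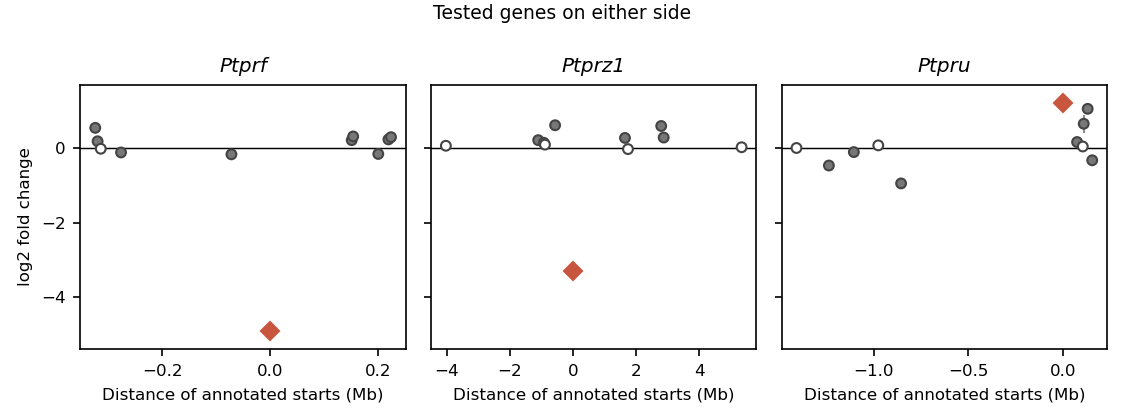
log2 fold change of the 5 nearest tested genes on each side of Ptprf, Ptprz1 and Ptpru against their distance in Mb. Distances are between lowest annotated coordinates, which the axis label calls starts whatever the strand. Circles are filled where called, red diamonds are the member and bars are standard errors. The diamonds of Ptprf at −4.90 and Ptprz1 at −3.29 lie far below their neighbours, which lie between −0.17 and 0.61.

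The genes whose log2 CPM was most like that of Ptprf over the 10 libraries, among 12054 genes with a mean of at least 1 CPM, were Col4a1 (Pearson r = 0.998), Anpep (0.9979), Tnc (0.9978), Tbc1d9 (0.9977) and Rnd3 (0.9977). Col4a1, a collagen IV chain of basement membranes, had 39.0 ± 1.44 CPM in WT31 and 0.727 ± 0.0969 CPM in WT31_P5IV. Anpep had a log2 fold change of −3.87. Rnd3 differed far less than Ptprf, with 98.7 ± 3.46 and 50.0 ± 1.34 CPM (log2 fold change −0.98). Tbc1d9 had 126 to 173 counts in WT31 and none in WT31_P5IV, at least 44.6-fold lower at 3 counts per library. For Ptpru they were Saal1 (0.9819), Shq1 (0.9803), Degs1 (0.9786), Zfp282 (0.9779) and Zfp446 (0.9769), whose log2 fold changes of 0.30 to 0.42 were smaller than the 1.21 of Ptpru. With 5 libraries per line these coefficients are carried mainly by the difference between the lines and share its libraries, and they are given as a description.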

How the data were processed

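RNA of cultured WT31 and WT31_P5IV cells was sequenced, 5 libraries each. Per the submitters' processing notes the authors trimmed reads with Trim Galore 0.6.4 and quantified transcripts with kallisto 0.4.6 on GRCm38.p6, and deposited gene-level estimated counts and TPM per library, the latter scaled by the authors to a total of 1000000 and by effective length. The paper names another kallisto version than these notes. Strand handling was not given in the sources used here. Symbols and positions were taken from GENCODE M21 (55144 of 55385 identifiers matched) and promoters from RefSeq.

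After rounding to integers, the counts were fitted with edgeR 4.0.16 (filterByExpr, TMM scaling, quasi-likelihood test, Benjamini-Hochberg adjustment over 13620 genes, threshold 0.05) in R 4.3.3. Log2 fold changes are edgeR's, with its default prior count. CPM used TMM-scaled library sizes. DESeq2 1.42.0 and limma 3.58.1 (voom, and log2(TPM + 0.1) and log2(TPM + 1)) were alternatives, beside other scalings and filters, a replicate block and leaving out each library. The scripts were tested on simulated data. No 2 libraries agreed within sampling noise.

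The members and all gene lists were chosen with earlier results of these data known. Named were all members, all other tested RPTPs, of each list the genes called with an absolute log2 fold change of at least 1 and the 2 with the highest mean CPM, flanking genes past the same limit, and the 5 genes most correlated with Ptprf and with Ptpru. Markers at or near 0, the nearest neighbours of Ptprf and others said to be so in the text were named after their values were seen. Of the leukocyte marker list, 1 gene is not reported here. Replicate numbers are those of the sample titles, which differ from the numbers in the WT31 library names.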

Additional observations from a re-analysis of the deposited data

Results flagged for a closer look

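In 2 of 26 groups of 5 libraries looked at (13 RPTP genes in each line), a single library stood far from the others by Dixon's criterion, which chance alone meets in about 1 in 20 groups. Ptprb in WT31 was at 0.792 CPM in replicate 5, from 20 counts, and at 1.36 to 1.49 CPM in the other 4 libraries. The log2 fold change of Ptprb was −0.15 in the main test and ranged from −0.29 to −0.04 over the 19 alternatives. Ptpre in WT31_P5IV was at 4.97 CPM in replicate 4, from 118 counts, and at 3.99 to 4.12 CPM in the other 4 libraries, which leaves it below every WT31 library.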

How the results depend on the processing

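For the 9 tested members, all 170 log2 fold changes over 19 alternatives kept their direction; Ptprf could not be tested under the stricter filter of 10 counts per library, which left 8 members. Log2 fold changes ranged from −4.97 to −1.02 for Ptprf, −3.38 to −1.84 for Ptprz1 and 0.46 to 1.27 for Ptpru, the values nearest 0 being on the log2(TPM + 1) scale, which compresses low genes. The other members ranged from 0.26 to 0.49 (Ptprd), 0.27 to 0.48 (Ptpra), 0.42 to 0.69 (Ptprm), 0.47 to 0.73 (Ptprg), 0.36 to 0.56 (Ptprj) and 0.82 to 0.98 (Ptprs), with Ptprd, Ptpra and Ptprm over 1.5 times smaller on a TPM scale than in the main test. The log2(TPM + 1) scale also gave all genes a median shift of −0.159, and log2(TPM + 0.1) one of −0.167. Genes called numbered 8622 to 10163. The other RPTPs called, 2 in the main test, fell to 1 with DESeq2, with no filter beyond 1 count, with at least 10 counts in every library, with the replicate block and on both log2(TPM) scales, and leaving out a library gave 1 to 2; Ptprn2 was the call lost (adjusted p = 0.0892 with DESeq2, not tested at 10 counts). With no filter the median of the LAR-type ligands turned to −0.01, beside that of the other ligands given above, as more genes were then tested. Leaving out a library gave the LAR-type ligands medians of 0.04 to 0.21, with 14 to 16 genes tested; they were 0.04 to 0.10 without WT31 replicate 1 or 5 or any WT31_P5IV replicate. By the numbers in the titles, same-numbered libraries of both lines correlated at −0.173 to 0.284 in their deviations and were best matched with their own number in 2 of 5 cases, so these numbers do not pair them. The replicate block changed no other count beyond 1.5 times. Depth limits Ptprk, Ptprf in the subline and the RPTPs with at most 7 counts.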
